A study of Rattus norvegicus with 12 samples.

Results

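L-acetyl-carnitine (LAC) given to Flinders Sensitive Line (FSL) rats was compared with plain tap water, whatever the animals' response. The 6 LAC libraries, 3 called non-responders and 3 called responders, were set against the 3 FSL vehicle libraries, each LAC group entering with equal weight. These 9 of the 12 libraries of the study were chosen by their labels alone. All came from the ventral dentate gyrus of male rats, strain given as Sprague-Dawley. The vehicle was tap water, and LAC was dissolved in it at 0.3% w/v for 7 days, an intake of about 210 mg/kg a day. The other 3 libraries, vehicle-treated Flinders Resistant Line (FRL) rats, served only to estimate the spread and to show a further untreated level. FSL is a selectively bred line used as a rat model of depression, and FRL is its control line, so every group compared here carries the FSL background. FSL vehicle rats were not divided by response, there was no LAC-treated FRL group, and the labels give neither the criterion for response nor the number of animals in a library. Libraries of 1 group are described in the labels as biological replicates. Where these are not separate animals, the p-values measure only the spread between these samples.

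LAC carries an acetyl group that can be passed to coenzyme A, and carnitine itself carries long-chain fatty acids into mitochondria for oxidation. Acetyl-CoA is the donor for histone acetylation, and LAC has been studied as a fast-acting antidepressant candidate in rodents. The dentate gyrus is the entry gate of the hippocampus. Its granule neurons receive cortical input and project to mossy cells and to field CA3, under the control of local GABAergic interneurons. Its ventral part is linked to anxiety and mood behaviour.

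No gene passed an adjusted p of 0.05 between LAC and FSL vehicle, 0% of the 11750 tested (edgeR quasi-likelihood test with Benjamini-Hochberg adjustment). The smallest adjusted p was 0.206, for the calpain family gene Capn6, and 474 further genes shared the next value, 0.324. By the unadjusted p, 1374 genes (11.7%) were under 0.05, of which 458 (3.9%) were higher and 916 (7.8%) lower with LAC. DESeq2 called 62 genes, 23 higher and 39 lower (0.157% and 0.267% of its 14634 genes), and limma-voom called 0. All 6 LAC libraries lay above all 3 FSL vehicle libraries in 219 genes (1.86%) and below them in 124 genes (1.06%). Responders and non-responders did not differ past the threshold in any gene (0 of 11750, smallest adjusted p 0.992), with 369 genes (3.14%) at an unadjusted p under 0.05. Values below are therefore descriptions of genes that stood highest in the ranking or belong to lists for this tissue and compound. These lists were chosen with earlier results of these data known. None of the genes passed in the edgeR fit of all 12 libraries.

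Counts in genes were 5.91 to 8.14 M (M for mega) per library, and 3 counts corresponded to 0.368 to 0.511 counts per M counts (CPM), a floor that covers counting error only. Markers of meninges and fibroblasts, the connective tissue around the brain, summed to 802, 3455 and 10517 CPM in FSL vehicle 1, 2 and 3, against 412 to 2436 CPM in the LAC libraries. Markers of the choroid plexus, the secretory tissue of the ventricles, summed to 8617 CPM in non-responder 1, and FSL vehicle 1 and 3 had 5235 and 739 CPM, where the other 6 libraries of the comparison had 177 to 263 CPM. Prox1, the defining transcription factor of dentate granule neurons, was present at 51.6 to 129 CPM in 8 of the 9 libraries but at 9.19 CPM in responder 1. That library also had 156 CPM of Tcf7l2, a factor abundant in thalamic neurons, against 7.68 to 20.4 CPM in the others. In bulk tissue, fewer cells of a type and less RNA per cell cannot be told apart.

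**Figure D1:**
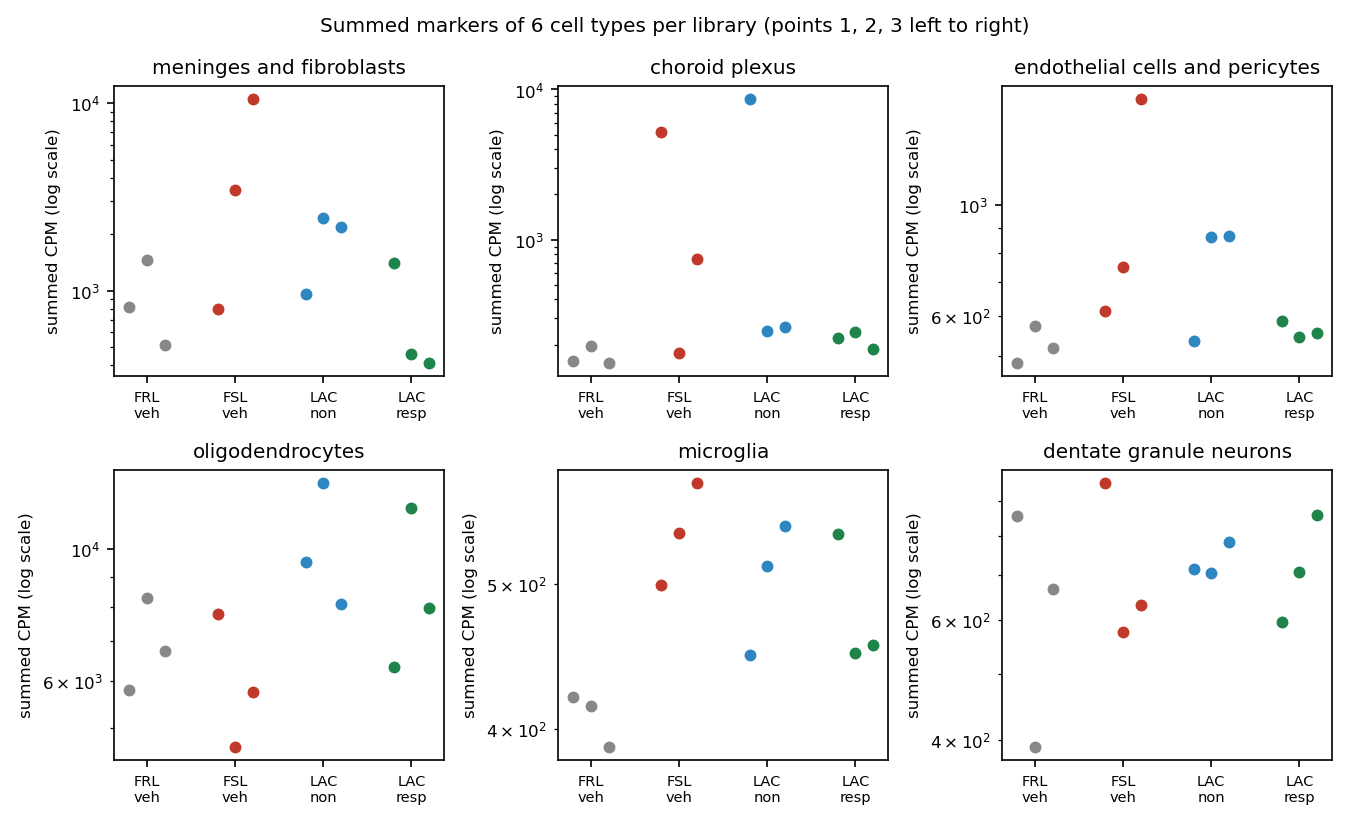
Summed CPM (log axis) of the markers of 6 cell types in each library, with points for libraries 1, 2 and 3 from left to right in each of the 4 groups. FSL vehicle 3 has the most meningeal signal at 10517 CPM, and non-responder 1 the most choroid plexus signal at 8617 CPM.

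The start regions of the 3 genes of smallest p are shown because these genes lead the comparison and stood on different sides of vehicle: Capn6 was lower, Vamp1 and Lamp5 higher with LAC. Each runs 5' to 3' on the gene's strand, from 250 bases before to 50 bases after the RefSeq start on the assembly GRCr8. That is chrX:112202129-112202428 on the minus strand for Capn6, chr4:159698644-159698943 on the plus strand for Vamp1 and chr3:143824947-143825246 on the plus strand for Lamp5. Capitals mark matches to the motifs searched on both strands.
Capn6: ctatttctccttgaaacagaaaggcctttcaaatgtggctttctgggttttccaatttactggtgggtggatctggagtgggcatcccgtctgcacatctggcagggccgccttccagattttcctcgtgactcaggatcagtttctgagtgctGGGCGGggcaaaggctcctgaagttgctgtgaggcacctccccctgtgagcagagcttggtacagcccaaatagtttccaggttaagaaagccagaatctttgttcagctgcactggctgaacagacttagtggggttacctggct
Vamp1: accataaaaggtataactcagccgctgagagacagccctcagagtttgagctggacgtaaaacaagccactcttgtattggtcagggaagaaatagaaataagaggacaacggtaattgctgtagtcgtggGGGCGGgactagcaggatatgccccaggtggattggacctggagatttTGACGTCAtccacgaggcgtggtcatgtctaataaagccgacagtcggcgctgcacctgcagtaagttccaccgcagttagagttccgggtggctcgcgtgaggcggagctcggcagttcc
Lamp5: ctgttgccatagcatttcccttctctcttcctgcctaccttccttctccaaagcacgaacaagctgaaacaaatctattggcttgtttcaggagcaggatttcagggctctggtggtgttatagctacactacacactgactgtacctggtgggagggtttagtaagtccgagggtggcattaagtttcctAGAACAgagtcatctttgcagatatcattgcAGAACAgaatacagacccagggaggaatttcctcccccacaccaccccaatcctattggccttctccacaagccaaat
The capitals in Capn6 are a GC box (GGGCGG, a match of the Sp family) starting 96 bases upstream of the start. Vamp1 holds a GC box 119 bases upstream and the full cyclic AMP response element TGACGTCA 71 bases upstream. Lamp5 holds AGAACA, the core of a glucocorticoid receptor element, at 59 and at 28 bases upstream. GGGCGG occurs in 34.9% of the 27457 RefSeq promoters of this length and in 62.4% of those of tested genes. TGACGTCA occurs in 1.91% and 3.22%, AGAACA in 20.1% and 12%, and TATAAA, the TATA box, in 14.3% and 6.51%. Of the 25 genes of smallest p, 17 had a promoter in the table. GGGCGG was present in 11 of them, TATAAA in 5, AGAACA in 3 (Lamp5, Eepd1 and Prkcd) and TGACGTCA in Vamp1. These matches describe letters and show no binding.

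The 25 genes of smallest p are described by their roles. Because they were ranked on this contrast, their direction and separation are descriptions and carry no test. Of these, 10 stood higher and 15 lower with LAC. In 21 of the 25 the 6 LAC and the 3 vehicle libraries did not overlap, where 2.92% of all tested genes did not. In 19 the 3 FSL vehicle libraries also lay outside all 9 other libraries, FRL vehicle included, below them in 9 and above them in 10, where 0.996% and 0.638% of all genes did so. Both comparisons with FSL vehicle share its 3 libraries and the genes were ranked on one of them, so nothing is read from this count.

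The 10 genes that stood higher with LAC are given first. Vamp1, synaptobrevin 1, is a vesicle protein of the fusion machinery. It stood at 192, 155 and 144 CPM in FSL vehicle 1 to 3, at 243, 221 and 236 CPM in non-responders and at 278, 235 and 253 CPM in responders. The lowest LAC library lay above the highest FSL vehicle library, and so did FRL vehicle at 211 to 241 CPM. The fitted log2 fold change was 0.58 ± 0.10 (SE), a ratio of 1.49 (adjusted p = 0.324, edgeR quasi-likelihood).

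Lamp5, a membrane protein that marks a class of GABAergic interneurons, had the largest positive value of the 25. Its levels were 28.1, 31.1 and 32.5 CPM with vehicle, 54.9, 52.7 and 52.2 CPM in non-responders and 51.9, 54.9 and 63.4 CPM in responders. Every LAC library was above every vehicle library, responder 3 standing above the other 5. FRL vehicle spread from 44.8 to 77.1 CPM, highest in FRL vehicle 2. That library had the lowest summed granule neuron markers of all 12 libraries, 391 CPM. The log2 fold change of Lamp5 was 0.85 ± 0.16, a ratio of 1.80 (adjusted p = 0.324, edgeR quasi-likelihood), and it was 0.09 larger in responders than in non-responders. Of 24 other fits Lamp5 passed in 3 and not in the rest. With DESeq2 its adjusted p was 0.00216. The 9 FSL-line libraries with 1 mean for all LAC gave an adjusted p of 0.0370 (edgeR quasi-likelihood). Without responder 1 and FRL vehicle 2 the adjusted p was 0.0262 (edgeR quasi-likelihood).

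Nefh, the heavy neurofilament subunit of large axons, was at 126, 106 and 99.1 CPM in FSL vehicle and at 137 to 211 CPM (median 168) with LAC, with no overlap (log2 fold change 0.63 ± 0.13). Its partner Nefl, the light subunit, was at 362 to 482 CPM and 456 to 793 CPM (median 630), where responder 1 fell within the vehicle range (0.52 ± 0.17). Cabp1, a neuronal calcium-binding protein that acts on calcium channels, was at 32.1, 36.0 and 32.8 CPM in FSL vehicle. It was at 40.6, 39.4 and 46.8 CPM in non-responders and at 58.0, 48.5 and 48.5 CPM in responders (0.47 ± 0.09). Cabp1 was the only gene of the 10 higher ones with an unadjusted p under 0.05 between responders and non-responders (log2 difference 0.29). Lgi3, a secreted protein of the LGI family that binds ADAM receptors at axons, was at 80.6 to 88.5 CPM in vehicle and at 104 to 140 CPM with LAC (0.52 ± 0.11). Tmem25, a transmembrane protein of the immunoglobulin family, was at 37.8 to 46.3 CPM and 55.8 to 63.2 CPM (0.45 ± 0.08). In none of these except Nefl did the groups overlap.

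Sgk1 encodes the serum- and glucocorticoid-induced kinase, a classical target of the corticosteroid receptors. It stood at 187, 174 and 191 CPM in FSL vehicle, at 298, 274 and 309 CPM in non-responders and at 223, 320 and 214 CPM in responders. Every LAC library was higher than every vehicle library, with responders 1 and 3 nearest to vehicle, and FRL vehicle spanned 199 to 237 CPM. The log2 fold change was 0.57 ± 0.12, from 0.68 in non-responders and 0.46 in responders, whose difference had an unadjusted p of 0.140 (edgeR quasi-likelihood).

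Olig2, the transcription factor of the oligodendrocyte lineage, stood at 29.4, 26.7 and 20.3 CPM in FSL vehicle. Its levels were 38.0, 40.2 and 38.0 CPM in non-responders and 38.1, 42.8 and 33.3 CPM in responders, above every vehicle library. FRL vehicle, at 27.1 to 31.2 CPM, lay mostly within the FSL vehicle range here, unlike in the other 9 higher genes. The log2 fold change was 0.59 ± 0.12. Eepd1, an endonuclease-family protein, was at 17.8 to 23.2 CPM in vehicle and 26.5 to 32.2 CPM with LAC (0.52 ± 0.10). Mrpl48, a protein of the mitochondrial ribosome, was at 41.6 to 48.8 CPM and 52.0 to 59.5 CPM (0.33 ± 0.07). Neither overlapped.

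**Figure D2:**
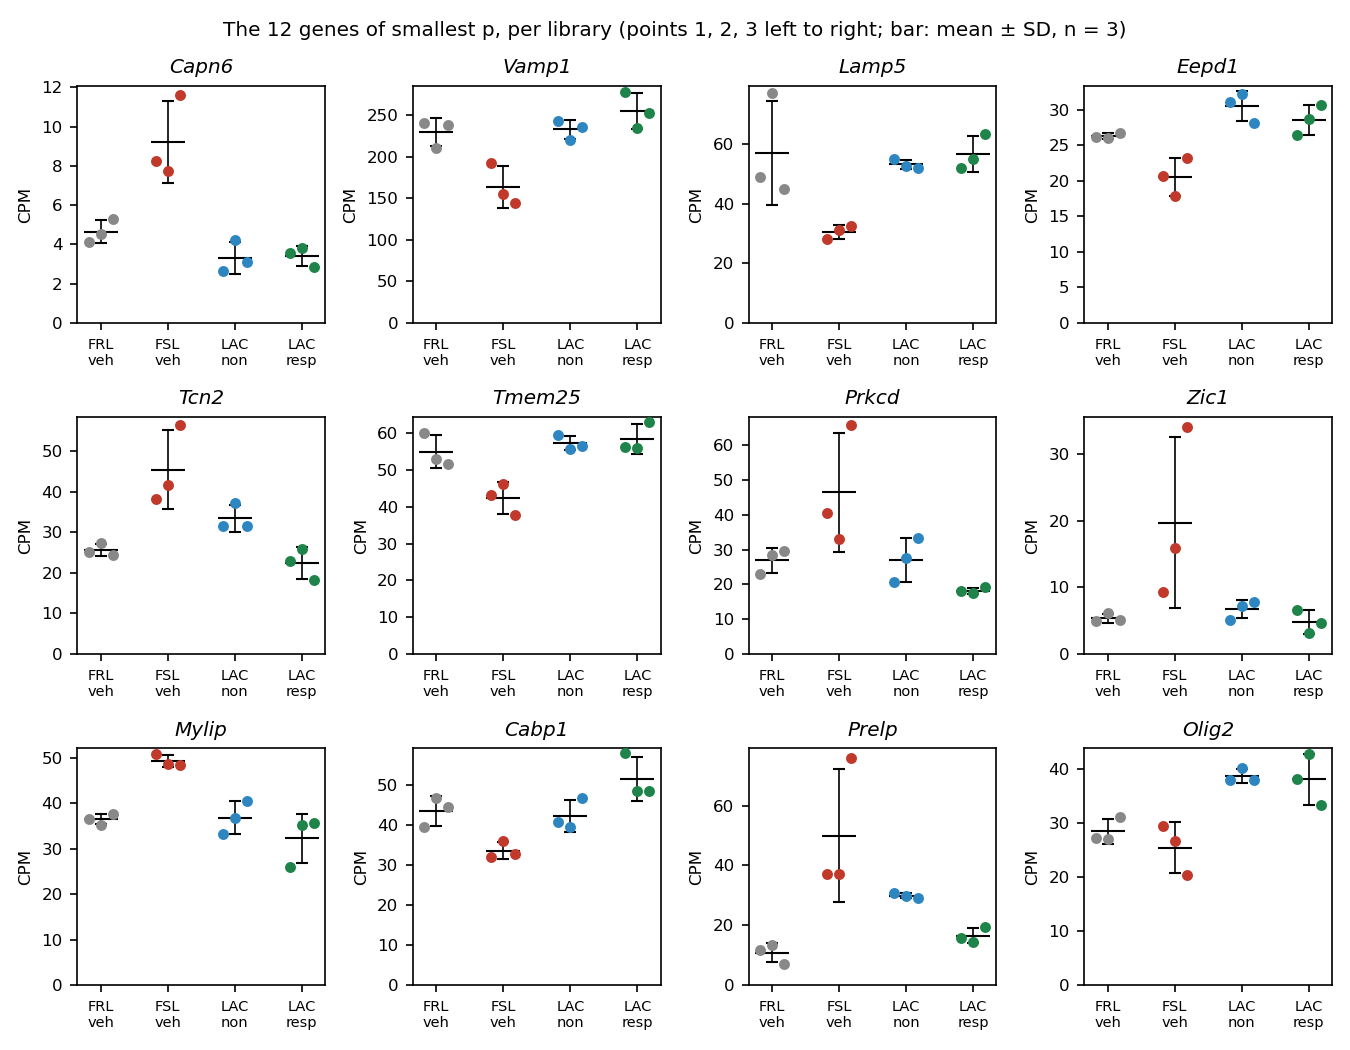
CPM in each library for the 12 genes of smallest p, with points for libraries 1, 2 and 3 from left to right and bars for the mean ± SD of each group (n = 3). FSL vehicle stands apart from both LAC groups in most panels, for example at 28.1 to 32.5 CPM against 51.9 to 63.4 CPM for Lamp5.

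Among the lower genes, Capn6, a calpain family member without protease activity that stabilises microtubules, was scarce in every library. It was at 8.28, 7.74 and 11.6 CPM in FSL vehicle, at 2.64, 4.22 and 3.11 CPM in non-responders and at 3.55, 3.84 and 2.83 CPM in responders. All LAC libraries were below all vehicle libraries, and FRL vehicle, at 4.12 to 5.28 CPM, lay below FSL vehicle and close to the highest LAC libraries. The log2 fold change was -1.45 ± 0.20, so that vehicle was 2.73-fold higher (adjusted p = 0.206, edgeR quasi-likelihood). The LAC groups had nearly the same value, -1.47 in non-responders and -1.43 in responders. Capn6 passed in 2 of 24 other fits, with DESeq2 (adjusted p = 0.000294) and without FSL vehicle 1, and not in the rest.

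Several lower genes encode matrix proteins or factors of connective tissue. Prelp, a collagen-binding proteoglycan, was at 37.0, 37.2 and 75.9 CPM in FSL vehicle, at 30.7, 29.8 and 29.3 CPM in non-responders and at 15.8, 14.4 and 19.3 CPM in responders. The 3 groups did not overlap, responders lying nearest to FRL vehicle at 7.15 to 13.3 CPM (log2 fold change -1.17 ± 0.23). Ccdc80, a secreted matrix protein, was at 27.6 to 55.9 CPM in vehicle and 17.2 to 31.9 CPM with LAC (-0.91 ± 0.19). Zic1, a zinc finger factor of midline and meningeal cells, was at 9.25, 15.9 and 34 CPM in vehicle and at 3.10 to 7.77 CPM with LAC (-1.80 ± 0.34). Its relative Zic5 was at 6.98 to 10.2 CPM and 2.56 to 6.07 CPM (-1.01 ± 0.21). Both Zic genes were below vehicle in every LAC library. Zic1 was the gene of the 25 that moved most with the meningeal markers: its log2 fold change was 0.505 of its size, -0.91, once their mean entered the fit as a covariate.

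Signalling and cell-cycle genes were also among the lower ones. Prkcd, protein kinase C delta, was at 40.4, 33.2 and 65.7 CPM in FSL vehicle and at 17.5 to 33.2 CPM with LAC, where non-responder 3 reached the lowest vehicle library (-1.06 ± 0.20). Cdkn1c, the inhibitor of cyclin-dependent kinases p57, was at 11.2, 19.0 and 27.9 CPM and at 3.91 to 16.4 CPM, and the groups overlapped (-1.41 ± 0.31). Wwtr1, the Hippo pathway coactivator TAZ, was at 12.7 to 23.5 CPM and 8.23 to 12.4 CPM, without overlap (-0.84 ± 0.18). Mylip, a ubiquitin ligase that degrades the LDL receptor, was at 48.4 to 51.0 CPM and 26.1 to 40.6 CPM (-0.52 ± 0.10). Its vehicle libraries were close together, and no LAC library reached them. Sept9, a septin of the cytoskeleton, was at 121 to 137 CPM and 92.3 to 117 CPM (-0.29 ± 0.06).

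The rest of the lower genes had varied roles. Tcn2, the transcobalamin that carries vitamin B12 into cells, was at 38.1, 41.7 and 56.6 CPM in vehicle, at 31.5, 37.3 and 31.7 CPM in non-responders and at 23.0, 26.0 and 18.4 CPM in responders (-0.73 ± 0.14). Lcp1, plastin 2, an actin-bundling protein of leukocytes and microglia, was at 85.1 to 107 CPM and 45.7 to 80.2 CPM (-0.51 ± 0.11). Neither gene overlapped between vehicle and LAC. Thnsl2, a threonine synthase-like protein, was at 12.8 to 14.4 CPM and 8.82 to 10.4 CPM (-0.53 ± 0.11), and Sft2d2, a vesicle trafficking protein, at 21.3 to 40.9 CPM and 11.1 to 21.0 CPM (-0.90 ± 0.20). Serpinb1a, an inhibitor of neutrophil proteases, was at 6.01 to 9.66 CPM and 1.72 to 6.99 CPM, overlapping through non-responder 1 (-1.31 ± 0.27). Of the 15 lower genes, all but Capn6 were further below vehicle in responders than in non-responders (14 of 15). For that difference 10 had an unadjusted p under 0.05 (11 of all 25, against 3.14% of all genes, edgeR quasi-likelihood). The adjusted p was at least 0.992 in all. The 25 were ranked in the same fit, whose estimate of spread both comparisons share, so nothing is read from this count.

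Meningeal marker levels moved with this contrast, and their part in it was tested only as a covariate. All 25 genes kept their sign and an unadjusted p under 0.05 with the covariate. Because they were ranked on this contrast in the same libraries, this carries no test. Their log2 fold changes were 0.505 to 1.22 times the original, with a median of 0.904 for the higher and 0.747 for the lower genes. Without FSL vehicle 3, the library richest in these markers, the range was 0.601 to 1.19 times, and again all 25 had an unadjusted p under 0.05. Lamp5 was at 0.94 ± 0.19 with the covariate and Capn6 at -1.25 ± 0.23. With the covariate 534 of 11750 genes had an unadjusted p under 0.05, and without FSL vehicle 3 it was 459 of 11851. The main fit had 1374 of 11750 (11.7%). The smallest adjusted p was 0.795 with the covariate and 0.543 without FSL vehicle 3 (edgeR quasi-likelihood).

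**Figure D3:**
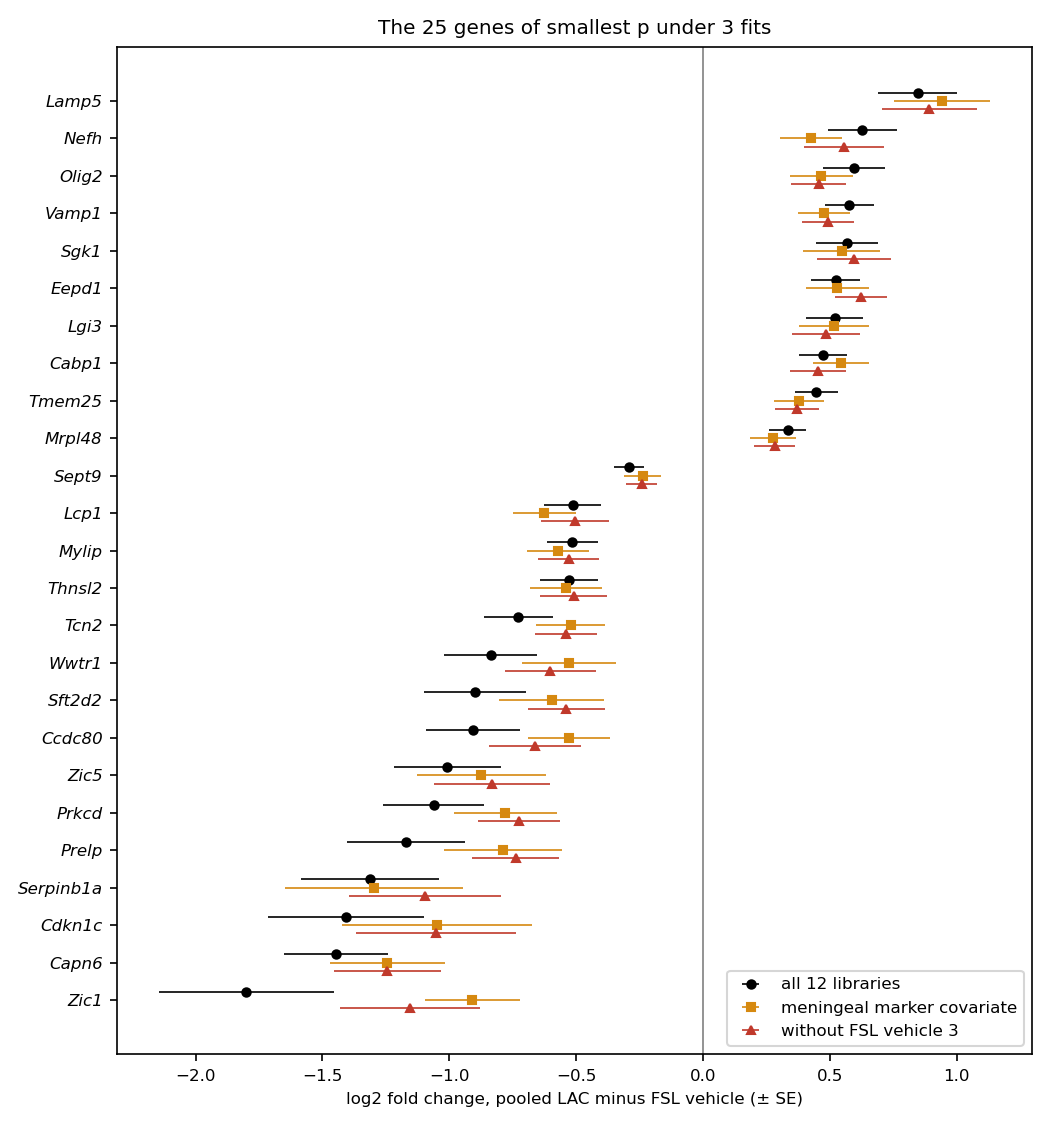
Log2 fold change (± SE) of pooled LAC minus FSL vehicle for the 25 genes of smallest p, from all 12 libraries, with the meningeal marker mean as a covariate, and without FSL vehicle 3. All 25 stay on their side of 0, and Zic1 moves furthest, from -1.80 to -0.91 with the covariate.

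Genes of carnitine handling bear on the compound itself. Of 12 tested members of the carnitine shuttle, 0 passed the adjusted threshold, 0 were higher and 2 lower at an unadjusted p under 0.05, where 3.9% and 7.8% of all genes were, and the median log2 fold change was -0.09 (all genes: 0.0028). Cpt1a, which loads fatty acids onto carnitine at the outer mitochondrial membrane, stood at 62.2, 69.1 and 75.2 CPM in FSL vehicle and at 55.4 to 64.4 CPM (median 58.9) with LAC. The groups touched only through FSL vehicle 1 and non-responders 1 and 2 (-0.21 ± 0.07). Slc22a5, the carnitine importer OCTN2, was at 14.3, 17.2 and 24.6 CPM and at 10.3 to 16.2 CPM (-0.45 ± 0.18), and its value was -0.20 without FSL vehicle 3. Crat, the enzyme that moves acetyl groups between carnitine and coenzyme A, was level at 112 to 136 CPM and 119 to 130 CPM (-0.0081 ± 0.08). Slc25a20, the mitochondrial carnitine-acylcarnitine carrier, and the brain isoform Cpt1c had 0.02 ± 0.10 and 0.14 ± 0.09.

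Fatty acid oxidation and acetyl-CoA supply showed a few members on either side. Of 30 tested genes, 3 were higher and 1 lower at an unadjusted p under 0.05 (all genes: 3.9% higher, 7.8% lower), with a median of -0.02 that turned sign in 3 fits. Acss2, which makes acetyl-CoA from acetate, was at 75.6, 80.5 and 75.9 CPM in vehicle and 80.0 to 104 CPM with LAC (0.26 ± 0.08). Acly, which makes it from citrate, was at 308, 330 and 302 CPM and at 337 to 381 CPM with no overlap (0.18 ± 0.07). Pdk2, a kinase that restrains pyruvate dehydrogenase, had 0.19 ± 0.08, and Eci1, an isomerase of mitochondrial beta-oxidation, -0.47 ± 0.15. For Acss2 only responder 1 fell within the vehicle range.

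Histone acetylation genes differed by little in size. Of 21 tested, 3 were higher and 0 lower at an unadjusted p under 0.05 (all genes: 3.9% higher, 7.8% lower). The median was 0.03 and turned sign in 3 fits, to -0.01 without responder 3. The higher genes were Kat8, the acetyltransferase MOF, at 30.9 to 35.9 CPM in vehicle and 36.6 to 47.4 CPM with LAC (0.25 ± 0.08), Sirt2 (0.23 ± 0.09), a deacetylase abundant in oligodendrocytes, and Kat7 (0.15 ± 0.06). Crebbp, the acetyltransferase CBP, had -0.11 ± 0.14, the deacetylase Hdac2 0.10 ± 0.10, and the NF-kB subunit Rela -0.10 ± 0.16. Each of these last 3 overlapped between groups.

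Glutamate and plasticity genes studied with LAC were not separated. Grm2, the presynaptic metabotropic receptor mGlu2, stood at 94.8, 90.6 and 79.2 CPM in FSL vehicle, at 88.4, 82.7 and 74.2 CPM in non-responders and at 42.1, 97.4 and 77.3 CPM in responders. The groups overlapped, the lowest value being that of responder 1 (log2 fold change -0.20 ± 0.21). Bdnf, the neurotrophin of activity-dependent plasticity, was at 51.3, 64.5 and 39.3 CPM and at 52.2 to 79.2 CPM (median 60.6; 0.27 ± 0.17). Slc7a11, the cystine-glutamate exchanger xCT, was at 340, 620 and 821 CPM and at 290 to 428 CPM (median 331; -0.78 ± 0.22), where FSL vehicle 1 lay within the LAC range. Slc7a11 was the 1 member of 31 glutamate receptor and transport genes with an unadjusted p under 0.05 (all genes: 3.9% higher, 7.8% lower). It was at -0.48 without FSL vehicle 3 and at -0.27 with the meningeal covariate. The list median of 0.06 was -0.04 and -0.10 in those fits, and the astrocyte transporter Slc1a2 had -0.01 ± 0.18.

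Synaptic and membrane genes were more often above than below 0. Of 46 synaptic vesicle genes 35 had a positive value, where 50.7% of all genes did, and 7 were higher and 2 lower at an unadjusted p under 0.05 (all genes: 3.9% higher, 7.8% lower). The median of 0.12 was 0.04 without FSL vehicle 3 and 0.06 with the meningeal covariate. Beside Vamp1 the genes included Snap25, a partner of synaptobrevin at the plasma membrane, at 1154 to 1512 CPM in vehicle and 1481 to 1756 CPM with LAC (0.27 ± 0.10), and on the lower side Rab3b (-0.48 ± 0.14) and Snap23 (-0.34 ± 0.12). Of 32 calcium-binding and calcium signalling genes 28 were positive, with 2 higher and 0 lower, among them Pvalb (0.46 ± 0.17), parvalbumin of fast-spiking interneurons. Their median of 0.17 was 0.07 without FSL vehicle 3 and 0.05 with the covariate. Of 38 potassium channels 5 were higher and 2 lower (median 0.13). Kcnn3, the small-conductance channel SK3, was at 22.5 ± 2.46 CPM in vehicle (mean ± SD, n = 3) and at 18 ± 0.478 CPM with LAC (n = 6), without overlap (-0.32 ± 0.09). Kcna1 and Kcnq5, subunits of the Kv1 and M-type channels, had 0.45 ± 0.16 and 0.51 ± 0.17. The potassium channel median was -0.02 with the meningeal covariate.

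GABA genes gave 2 higher and 0 lower of 21 (all genes: 3.9% higher, 7.8% lower), and their median of 0.10 was 0.0073 without FSL vehicle 3. Gad2, the synaptic GABA-synthesising enzyme, was at 137, 131 and 113 CPM in vehicle and at 138 to 180 CPM (median 150) with LAC, without overlap (0.28 ± 0.09). Gad1 had 0.18 ± 0.09. The 14 interneuron markers share Gad1, Gad2 and Slc32a1 with that list. Of these markers 3 were higher (Lamp5, Gad2 and Pvalb) and 0 lower (median 0.17, and 0.07 without FSL vehicle 3). In each of these 3 all LAC libraries lay above all vehicle libraries, where 1.86% of all genes did so. The 3 were picked by their p in this contrast, so nothing is read from their separation.

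Stress and growth factor genes were mixed. Of 24 glucocorticoid-induced genes 3 were higher and 4 lower at an unadjusted p under 0.05 (all genes: 3.9% higher, 7.8% lower). The median of -0.09 was 0.01 without FSL vehicle 3 and 0.06 with the meningeal covariate. Beside Sgk1, Arrdc2 was at 16 to 23.2 CPM in vehicle and 20.3 to 38.7 CPM with LAC (0.67 ± 0.17), while Cdkn1c, Sult1a1 (-1.23 ± 0.41) and Gjb6 (-0.83 ± 0.31) were lower. Sult1a1 and Gjb6 were at -0.14 and -0.02 with the covariate. Fkbp5, the receptor co-chaperone and a sensitive glucocorticoid target, overlapped fully (-0.17 ± 0.22), as did the receptors Nr3c1 (0.03 ± 0.10) and Nr3c2 (0.07 ± 0.29). Of 18 corticosteroid receptor and stress peptide genes 1 was higher (Fkbp4, 0.21 ± 0.09) and 0 lower (median 0.19, and 0.06 without FSL vehicle 3). Of 24 neurotrophins and growth factors 0 were higher and 3 lower (median -0.04, sign turned in 5 fits). Of 28 insulin and glucose genes 0 were higher and 4 lower (median -0.09, and 0.0093 without FSL vehicle 3). The lower members of the insulin list included Igf2 (-2.39 ± 0.55) and the binding proteins Igfbp2 (-2.19 ± 0.57) and Igfbp5 (-0.84 ± 0.30), and the insulin receptor Insr had -0.09 ± 0.14. Igf2, which meningeal cells express strongly, was at 138, 324 and 1231 CPM in vehicle, the order of their meningeal sums, and at 29.9 to 256 CPM with LAC. Its log2 fold change was -1.10 without FSL vehicle 3 and -0.78 with the meningeal covariate. Igf2 is itself one of the meningeal markers and enters both their sums and the covariate, so nothing is read from that order or from the smaller value.

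Activity and clock genes had few members under an unadjusted p of 0.05. Of 32 immediate early genes 1 was higher and 3 lower (all genes: 3.9% higher, 7.8% lower, median of the list -0.07), such as Klf4 (-1.31 ± 0.34) and Atf3 (-1.26 ± 0.40). Of 17 clock genes 1 was higher and 1 lower (median -0.02, sign turned in 4 fits). The lower one was Per2, a repressor of the clock, at 103, 100.0 and 140 CPM in vehicle and at 82.7 to 94.6 CPM with LAC, without overlap (-0.38 ± 0.12). Of 31 cytoskeletal, septin and calpain genes 5 were higher and 3 lower (median 0.13, and 0.06 without FSL vehicle 3).

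Energy metabolism genes had many small positive values. Of 48 oxidative phosphorylation genes 46 were positive (all genes: 50.7%, median of the list 0.10). Of these 48 only 1, Ndufa8, had an unadjusted p under 0.05 (0.22 ± 0.10), where 3.9% of all genes were higher and 7.8% lower. Of 32 glycolysis and citrate cycle genes 26 were positive (median 0.10), with 1 higher and 1 lower. Pkm, pyruvate kinase, was at 1029 to 1185 CPM in vehicle and 1224 to 1345 CPM with LAC (0.21 ± 0.07), and Idh2 had -0.21 ± 0.09. Without FSL vehicle 3 both medians were 0.02. With FSL vehicle 1 and 3 and non-responder 1, the libraries rich in choroid plexus markers, left out, the medians were -0.10 and -0.04, but FSL vehicle 2 was then the only vehicle library.

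Matrix and immune genes mostly had negative values. All 21 collagen and matrix proteoglycan genes were below 0 and 16 had an unadjusted p under 0.05, where 7.8% of all genes were lower (median -1.34, -0.84 in non-responders and -2.10 in responders). Col3a1, a fibrillar collagen, was at 20.3, 203 and 445 CPM in FSL vehicle and at 7.56 to 99.2 CPM with LAC (-2.64 ± 0.79). FSL vehicle 1 lay within the LAC range. Of 34 complement, MHC and interferon genes 33 were below 0 and 16 had an unadjusted p under 0.05 (median -0.76). B2m, the light chain of MHC class I, was at 280, 421 and 446 CPM and at 229 to 348 CPM (-0.43 ± 0.13), and Cd74, the MHC class II chaperone, at 7.47, 47.6 and 156 CPM and at 1.75 to 19.1 CPM (-2.83 ± 0.78). With the meningeal covariate the medians of both lists were -0.11 and -0.04. Without FSL vehicle 3 they were -0.43 and -0.28. With the covariate Col3a1 was at -0.17, B2m at -0.16 and Cd74 at -0.38. The matrix list shares 8 genes with the meningeal markers that form the covariate, Col3a1 among them. The smaller values of Col3a1 and of the matrix median are therefore partly built in, and nothing is read from them.

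**Figure D4:**
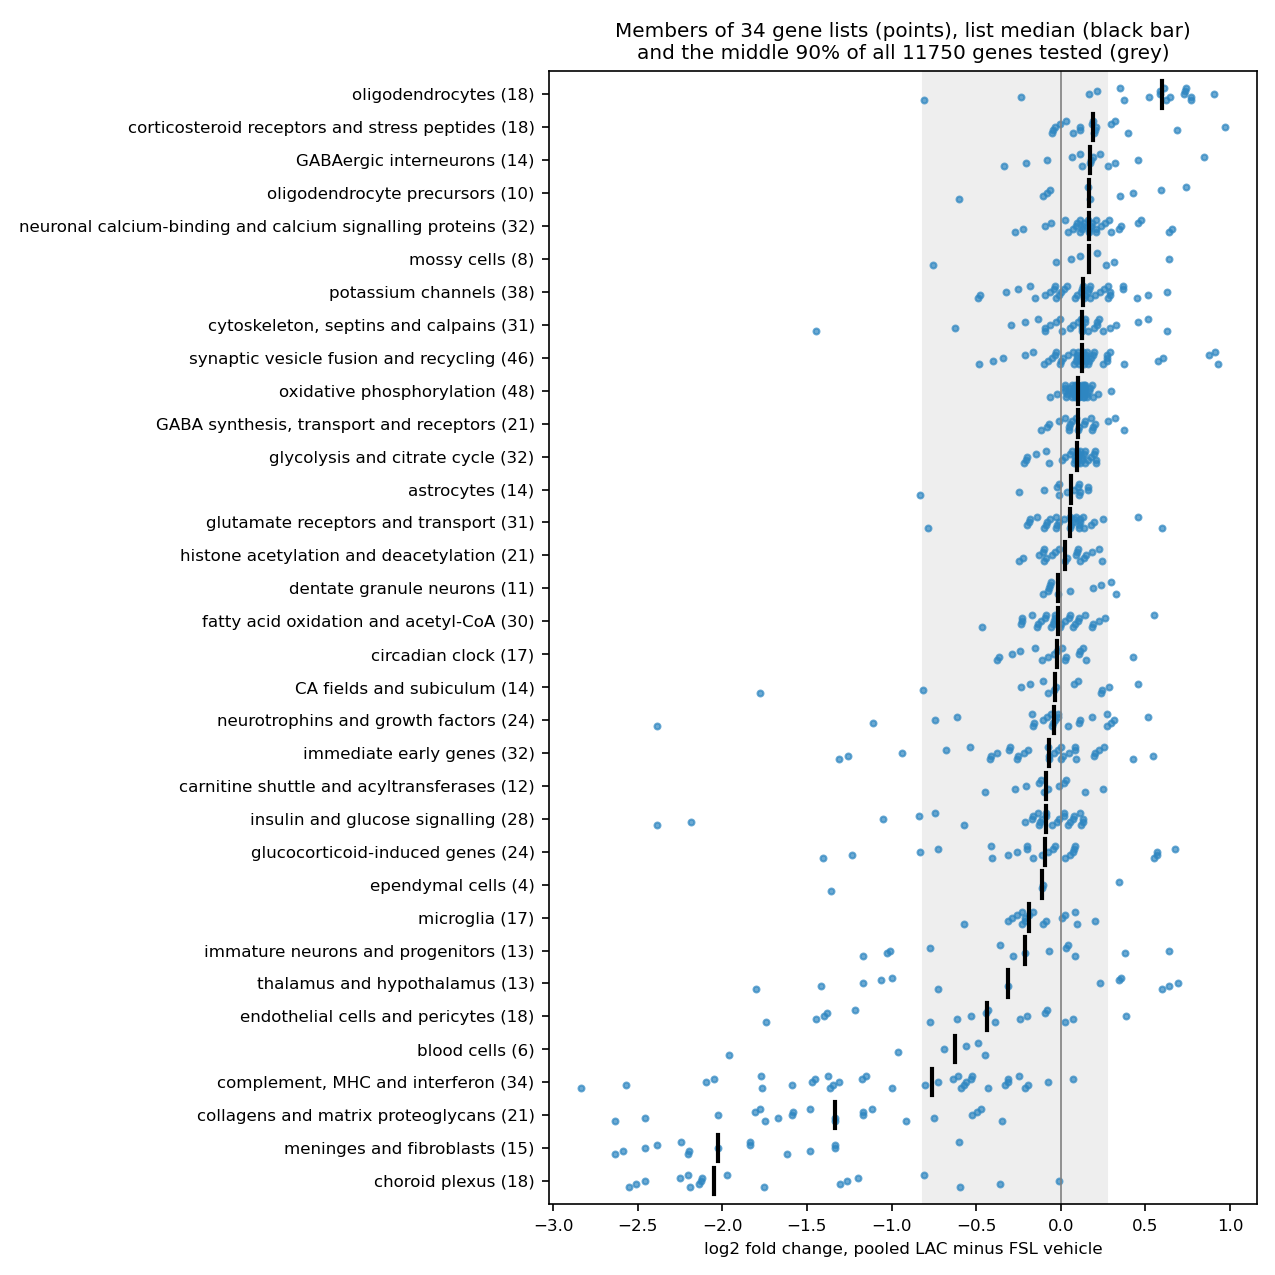
Log2 fold change of pooled LAC minus FSL vehicle for each tested member of 34 gene lists (points, number tested in parentheses), the list median (black bar), and the middle 90% of all 11750 genes (grey). Oligodendrocyte markers have the highest median at 0.60, and choroid plexus and meningeal markers the lowest at -2.05 and -2.02.

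Of 18 oligodendrocyte markers 16 were positive, 11 were higher and 0 lower at an unadjusted p under 0.05 (all genes: 50.7% positive, 3.9% higher, 7.8% lower), and the median was 0.60 (0.66 in non-responders, 0.54 in responders). Cnp, an enzyme of myelin-forming cells, was at 388, 308 and 321 CPM in FSL vehicle, at 458, 653 and 424 CPM in non-responders and at 391, 664 and 465 CPM in responders. Every LAC library was above every vehicle library, responder 1 by a small margin (0.59 ± 0.19). Mbp, myelin basic protein (0.77 ± 0.26), and Mal (0.90 ± 0.25) had like values with overlapping groups. The summed markers overlapped, at 4647 to 7793 CPM in vehicle and 6337 to 12934 CPM with LAC. The median was 0.57 without FSL vehicle 3, 0.51 with the meningeal covariate and 0.12 with these markers' own mean as a covariate. It was 1.11 with FSL vehicle 1 and 3 and non-responder 1 left out, where the only vehicle library is FSL vehicle 2, the one with the lowest sum. With that covariate Olig2 was at 0.51, Nefh at 0.45, Sgk1 at 0.39 and Lgi3 at 0.35, each with an unadjusted p under 0.05 (edgeR quasi-likelihood). Of 10 precursor markers 3 were higher, among them Bcas1 (0.74 ± 0.25) and Olig1 (0.42 ± 0.15), and 1 lower, Pdgfra (-0.60 ± 0.20, and -0.22 without FSL vehicle 3), with a median of 0.17. Pdgfra is also counted in the meningeal list, and it was at -0.12 with the meningeal covariate, of which it is a part.

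For markers of neurons the median log2 fold changes were -0.02 for 11 granule neuron markers (1 higher, 0 lower), -0.04 for 14 markers of CA fields and subiculum (0 higher, 2 lower) and 0.16 for 8 of mossy cells (0 either way). The medians were -0.31 for 13 of thalamus and hypothalamus (1 higher, 5 lower), a list that holds Zic1, and -0.21 for 13 of immature neurons and progenitors (0 higher, 2 lower). Higher and lower in these lists mean an unadjusted p under 0.05, which 3.9% and 7.8% of all genes had. The thalamic and hypothalamic median was -0.44 in non-responders and 0.21 in responders. It was 0.23 in the fit of the 9 FSL-line libraries with 1 LAC mean. Nov, a secreted matricellular protein of CA1, was at 210, 347 and 186 CPM in vehicle and at 124 to 161 CPM with LAC (-0.82 ± 0.22). Nov did not overlap between groups. The other lower gene of that list, Fn1, is also in the matrix list (-1.78, and -0.22 with the meningeal covariate). The lower genes of the progenitor list, Nes and Mki67, were at -1.17 and -1.01, and at 0.10 and -0.52 with that covariate. Granule neuron markers summed to 578 to 955 CPM in vehicle and 597 to 859 CPM with LAC, the lowest LAC value being that of responder 1.

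Astrocyte markers had a median of 0.06 (14 tested, 0 higher, 1 lower) and microglial markers -0.19 (17 tested, 0 higher, 1 lower). Here too the counts are at an unadjusted p under 0.05, where 3.9% of all genes were higher and 7.8% lower. The lower microglial gene was Mpeg1, a pore-forming protein of macrophages (-0.29 ± 0.11). Of 18 endothelial and pericyte markers 0 were higher and 8 lower (median -0.44, -0.03 with the meningeal covariate and -0.09 without FSL vehicle 3). Of 15 meningeal markers 0 were higher and 13 lower (median -2.02, with -1.26 in non-responders and -2.78 in responders, and -0.89 without FSL vehicle 3). Of 18 choroid plexus markers 0 were higher and 1 lower, with a median of -2.05 that combined 0.37 in non-responders with -4.31 in responders and became 0.30 without FSL vehicle 1. Blood markers (6 tested, 0 higher, 1 lower, median -0.63) and ependymal markers (4 tested, 0 higher, 1 lower, median -0.11) were few. Col1a2 of the meningeal, Otx2 of the choroid plexus and Ly6c of the endothelial list were at 0 in all 9 libraries. The summed CPM of vehicle and LAC libraries overlapped in all 34 lists.

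The number of genes depended on which vehicle libraries entered. Without FSL vehicle 1, the vehicle library with the least meningeal signal, 323 genes passed the adjusted threshold, 18 higher (0.151% of 11884) and 305 lower (2.57%). These included 11 of the complement, MHC and interferon list, 11 collagen and matrix genes and 7 meningeal markers, all lower. Without any of the other 8 libraries 0 genes passed (edgeR quasi-likelihood), with 2622 genes at an unadjusted p under 0.05 without FSL vehicle 2, 459 without FSL vehicle 3, and 1148 to 1519 without 1 of the 6 LAC libraries. Of the 25 genes, 16 passed without FSL vehicle 1, where 323 of 11884 genes did. By DESeq2 23 of the 25 passed, where 62 of the 9845 genes with an adjusted p did. The 25 were ranked on this contrast in the same libraries, so these counts carry no test.

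**Figure D5:**
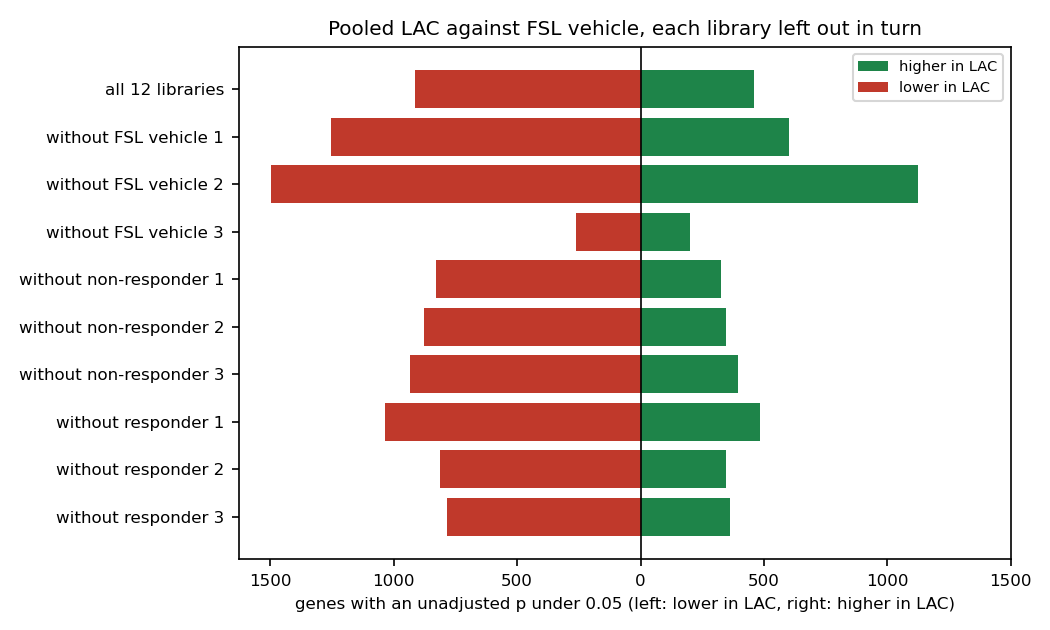
Number of genes with an unadjusted p under 0.05 in pooled LAC against FSL vehicle, lower (left) and higher (right) with LAC, from all 12 libraries and with each of the 9 FSL libraries left out. The total goes from 459 without FSL vehicle 3 to 2622 without FSL vehicle 2.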

How the data were processed

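Each deposited file gives, per the labels and its own lines, raw read counts by gene symbol: 17172 genes and 5 summary lines. Tools named in the submitters' processing notes are TopHat2 2.0.9, HTSeq 0.6.1, Trimmomatic 0.33, FastQC 0.11.3 and edgeR 3.12.0, with the build rn5. Per the labels' protocols the libraries were stranded, depleted of ribosomal RNA and read as 100 bp single ends. Neither annotation nor strand setting of the counting is stated there, so reads of overlapping or antisense genes may be mixed. Reads outside genes (47.7% to 52.7%), ambiguous (0.0756% to 0.106%) and with several alignments (24.3% to 28.4%) stayed out of library sizes.

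The main test used edgeR 4.0.16 (R 4.3.3). Scaling was by TMM (0.975 to 1.04), the default filter kept 11750 genes, and all 12 libraries entered 1 robust quasi-likelihood model with a mean for each group. The mean of both LAC groups was set against FSL vehicle, two-sided, with Benjamini-Hochberg adjustment at 0.05 and 8 residual degrees of freedom. CPM use the TMM-scaled totals. Alternatives were other scaling and filters, DESeq2 1.42.0, limma-voom (limma 3.58.1), fewer libraries, the replicate number as a block and marker covariates. The oligodendrocyte covariate, alone and with the meningeal one, was chosen after seeing the data. The fit was also run on simulated data, and the outcome is not given here. No 2 libraries of the same group were duplicates (chi-square per degree of freedom 5.54 to 28.3 between replicates). Libraries of different groups were not compared in this way.

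Genes, 34 lists and rules were chosen with earlier results of these data known. Named were the 25 genes of smallest p, 20 fixed genes (19 tested) and up to 4 members of smallest p in each list; Prox1, Tcf7l2 and the genes of other fits were named after their values were seen. Some lists share genes. Promoters came from RefSeq (GRCr8); no genome was used. A few genes that the rule takes are not reported here.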

Additional observations from a re-analysis of the deposited data

Results flagged for a closer look

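Among the 6 LAC libraries, 1 library stood apart from the other 5 in 15 of 149 named genes, by a gap of more than 0.625 of the whole range. Chance alone gives such a gap in about 5% of groups, and the genes are not independent. Non-responder 1 had the high value in 6. These were Serpinb1a at 6.99 CPM (others 1.72 to 3.67), Foxj1 at 15.2 CPM (1.75 to 3.96) and 4 choroid plexus markers: Kcnj13 at 82.9 CPM (0.248 to 8.34), Aqp1 at 86.4 CPM (0.675 to 3.43), F5 at 262 CPM (0.62 to 9.47) and Slc5a5 at 13.9 CPM (0.62 to 4.66). Responder 1 stood apart in 5. It was high for Calb2 at 100 CPM (15.3 to 19.8), Penk at 135 CPM (28.1 to 55.1) and Kat8 at 47.4 CPM (36.6 to 40.2). It was low for Kcna1 at 75.6 CPM (108 to 124) and Slc1a2 at 641 CPM (958 to 1140). Responder 3 was high for Lamp5 at 63.4 CPM (51.9 to 54.9) and Stxbp6 at 59.7 CPM (49.3 to 51.6). Non-responder 2 was high for Atf3 at 5.80 CPM (0.675 to 2.40), and non-responder 3 was low for Pcp4 at 83.8 CPM (125 to 135).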

How the results depend on the processing

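The count of 0 genes in pooled LAC against FSL vehicle became 62 with DESeq2, which gave no adjusted p for 4789 of 14634 genes. It became 1 in the 9 FSL libraries with 1 LAC mean (Lamp5), 1 without FSL vehicle 1 and 3 and non-responder 1, rich in choroid plexus markers (Serpinf1, log2 fold change -1.83; FSL vehicle 2 is then the lone vehicle library, assumed to vary like the other groups) and 1 without responder 1 and FRL vehicle 2 (Lamp5). Leaving out 1 library gave 0 to 323 genes, the latter without FSL vehicle 1, and the cause was not tested. Of DESeq2's calls, 42 were among those 323 (67.7% of the former, 13% of the latter). Responders against non-responders gave 11 genes, all lower in responders, with those same 3 libraries left out, and 0 otherwise. With the replicate block 0 genes passed and 1349 had an unadjusted p under 0.05. Departures from the group mean were correlated between libraries of the same number. The correlations were 0.581, 0.212 and 0.426 between FSL vehicle and non-responders, and -0.338, -0.108 and -0.263 between FSL vehicle and responders. Libraries of different numbers were not compared, so these values cannot show a pairing. The labels name none, and the block is no paired design here. Of 151 named genes, 116 kept their sign in all 24 alternatives, and of 34 list medians 11 did. Prox1-poor responder 1, 3 vehicle libraries and the uneven meningeal and choroid plexus signal limit what these libraries can show.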
